A study of Homo sapiens with 6 samples.

Results

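The respiratory chain and ATP synthase are built from 5 protein complexes of the mitochondrial inner membrane, and most of their subunits are encoded in the nucleus. Members were taken from the deposited count table as protein-coding genes whose symbols follow the NDUFA, NDUFB, NDUFC, NDUFS or NDUFV, SDHA to SDHD, UQCR, CYC1, COX4 to COX8 and ATP5 series, with a mean of at least 10 counts over the 6 libraries. Of the 28491 genes in the table, 87 matched these symbols and 83 reached the minimum. They comprise 36 genes of complex I, 4 of complex II, 10 of complex III, 14 of complex IV and 19 of complex V, and all 83 passed the filter on low counts used for testing. NDUFA4 and NDUFA4L2 were counted with complex IV, in which the NDUFA4 protein resides. At the threshold, NDUFA4L2 entered with a mean of 15.5 counts and NDUFA7 stayed out with a mean of 6 counts.

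Poly(A) RNA was sequenced from HCT116 cells, a human colorectal carcinoma line, 48 h after transfection. The 3 libraries named RBM47-OE received a plasmid that encodes the RNA-binding protein RBM47, and the 3 libraries named NC received a control plasmid. The plasmid is given as pcDNA3.1-3xFlag in the labels and as pIRES-hrGFP-1a in the methods of the study. Both groups share the parental line, the transfection reagent and the harvest time, and nothing in the sources states that the libraries of a group came from separate cultures, so p-values measure the spread between these samples, which may be technical.

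Complex I takes electrons from NADH, and complex II takes them from succinate as part of the citric acid cycle. Both pass them to coenzyme Q, from which complex III hands them to cytochrome c, and complex IV delivers them to oxygen. Complexes I, III and IV pump protons across the inner membrane, and complex V uses the return flow through its ring of c subunits to make ATP. A few core membrane subunits of complexes I, III, IV and V are encoded by mitochondrial DNA, so each of these complexes depends on both genomes.

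The c subunit is made from 3 nuclear genes, ATP5MC1, ATP5MC2 and ATP5MC3, which differ in the leader that is removed on import and encode the same mature protein. The translated coding sequences of the GENCODE 44 canonical transcripts are 136, 141 and 142 residues long and share an identical C-terminal run of 77 residues. Over the 231 bases that encode this run, ATP5MC1 and ATP5MC2 are 88.3% identical, and ATP5MC3 is 80.1% identical to each of them. The sequences are shown because the same protein is written with different base composition, which bears on the comparison of GC content. The first 60 bases of the run are given 5' to 3', with capitals at the 18 positions where the 3 genes are not all alike.
ATP5MC1: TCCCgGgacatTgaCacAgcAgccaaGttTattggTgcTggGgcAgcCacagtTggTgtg
ATP5MC2: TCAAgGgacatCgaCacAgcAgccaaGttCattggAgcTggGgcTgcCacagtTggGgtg
ATP5MC3: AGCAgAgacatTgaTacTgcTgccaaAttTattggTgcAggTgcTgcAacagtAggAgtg
Across the 231 bases, GC content was 55.4% in ATP5MC1, 54.98% in ATP5MC2 and 45.9% in ATP5MC3, and at the last position of each codon it was 63.6%, 61.0% and 39.0%.

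Many members have promoters with sites for nuclear respiratory factor 1 (NRF1), for ETS factors such as GABP and for YY1. RefSeq promoters (GRCh38.p14, 250 bases before to 50 bases after the start) matched 66 of the 83 members by symbol. The NRF1 core GCGCATGC, searched on both strands, was present in 13 of them (19.7%), in 5.36% of the 11105 matched promoters of tested genes and in 3.05% of all 35116 promoters. The ETS core CCGGAAG was present in 20 members (30.3%), against 18.6% of tested genes and 10.3% of all promoters. The YY1 core AAGATGG was present in 15 members (22.7%), against 7.45% and 5.84%, and the TATA box TATAAA in 5 (7.58%), against 5.37% and 11.5%. The ETS and YY1 cores can overlap in the letters AAG, and each was counted on its own. As examples, windows of 30 bases upstream of annotated starts are given for 4 members, 5' to 3' on the strand of the gene, with the motif in capitals. The SDHD window lies at chr11:112086752-112086781 on the plus strand, ATP5ME at chr4:674336-674365 on the minus strand, COX6B1 at chr19:35648293-35648322 on the plus strand and COX8A at chr11:63974590-63974619 on the plus strand.
SDHD: cagctgtgtttGCGCATGCgcgacgggtgt
ATP5ME: cgccgctgacgGCGCATGCgtgcgcccagc
COX6B1: agtccccacctctctcagCTTCCGGctggt
COX8A: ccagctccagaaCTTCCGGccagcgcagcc
SDHD and ATP5ME carry the NRF1 core, and COX6B1 and COX8A carry the ETS core on the opposite strand. These matches describe the letters in the window and not binding. The NRF1 core was found in 7 of 35 matched members that were lower in RBM47-OE by the edgeR test of the next paragraphs, and in 6 of the other 31.

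The libraries held 26792409 to 35477983 counts on genes. RBM47 (ENSG00000163694, chr4:40423267-40630875, minus strand) had FPKM of 1.91, 2.33 and 1.94 in NC and of 131.3, 130.4 and 127.0 in RBM47-OE, a log2 fold change of 5.90 ± 0.0964 (SE; edgeR adjusted p = 1.69e-25). The groups are widely separated, in the direction of the labels. Reads on RBM47 include those of the plasmid. Of 11 epithelial markers, KRT8, KRT18, KRT19, EPCAM and CDH1 were well expressed, with NC means from 13.1 FPKM for CDH1 to 971.7 FPKM for KRT19. The intestinal markers CDX1, LGR5, CEACAM5 and VIL1 were at or near 0, and levels of KRT20 and CDX2 are not given here. Of the 13 markers of other cell types, PTPRC and AFP were not among the genes analysed here, COL1A1 was at 1.53 FPKM in both groups, and the other 10 were at 0.103 FPKM or less in either group. In bulk RNA, fewer cells of a type and less RNA per cell cannot be told apart. Levels are given as the deposited FPKM (fragments on a gene scaled by its length and by the mapped fragments of the library), and fold changes come from edgeR on the deposited counts, as log2 of RBM47-OE over NC ± SE. A gene is called at a Benjamini-Hochberg adjusted p under 0.05 over all 16260 genes tested.

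Transcripts of respiratory chain subunits were mostly lower in RBM47-OE, by a small amount per gene. Of the 83 members, 45 were called lower, 4 were called higher and 34 were not called. Over all genes tested, 16.9% were called lower and 19.1% higher. The median log2 fold change of the members was -0.22, against 0.00 for all genes, and 71 of 83 values were negative. The 4 members called higher were SDHD (0.37), NDUFS1 (0.35), NDUFA5 (0.33) and ATP5F1C (0.29), the last 3 named after their values were seen. Under the cut-offs of the study, an unadjusted p under 0.01 and a fold change over 1.5, 2 members were lower, NDUFA3 and ATP5MF-PTCD1, and 0 were higher, against 0.873% and 1.51% of all genes. In a fit that removed each library's trend with exonic length as an offset (the length offset), 36 members were lower and 4 higher, against 17.4% and 16.8% of all genes, with a median of -0.17. By complex, the lower calls of that fit numbered 17 of 36 in complex I, 1 of 4 in complex II, 2 of 10 in complex III, 7 of 14 in complex IV and 9 of 19 in complex V.

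**Figure D1:**
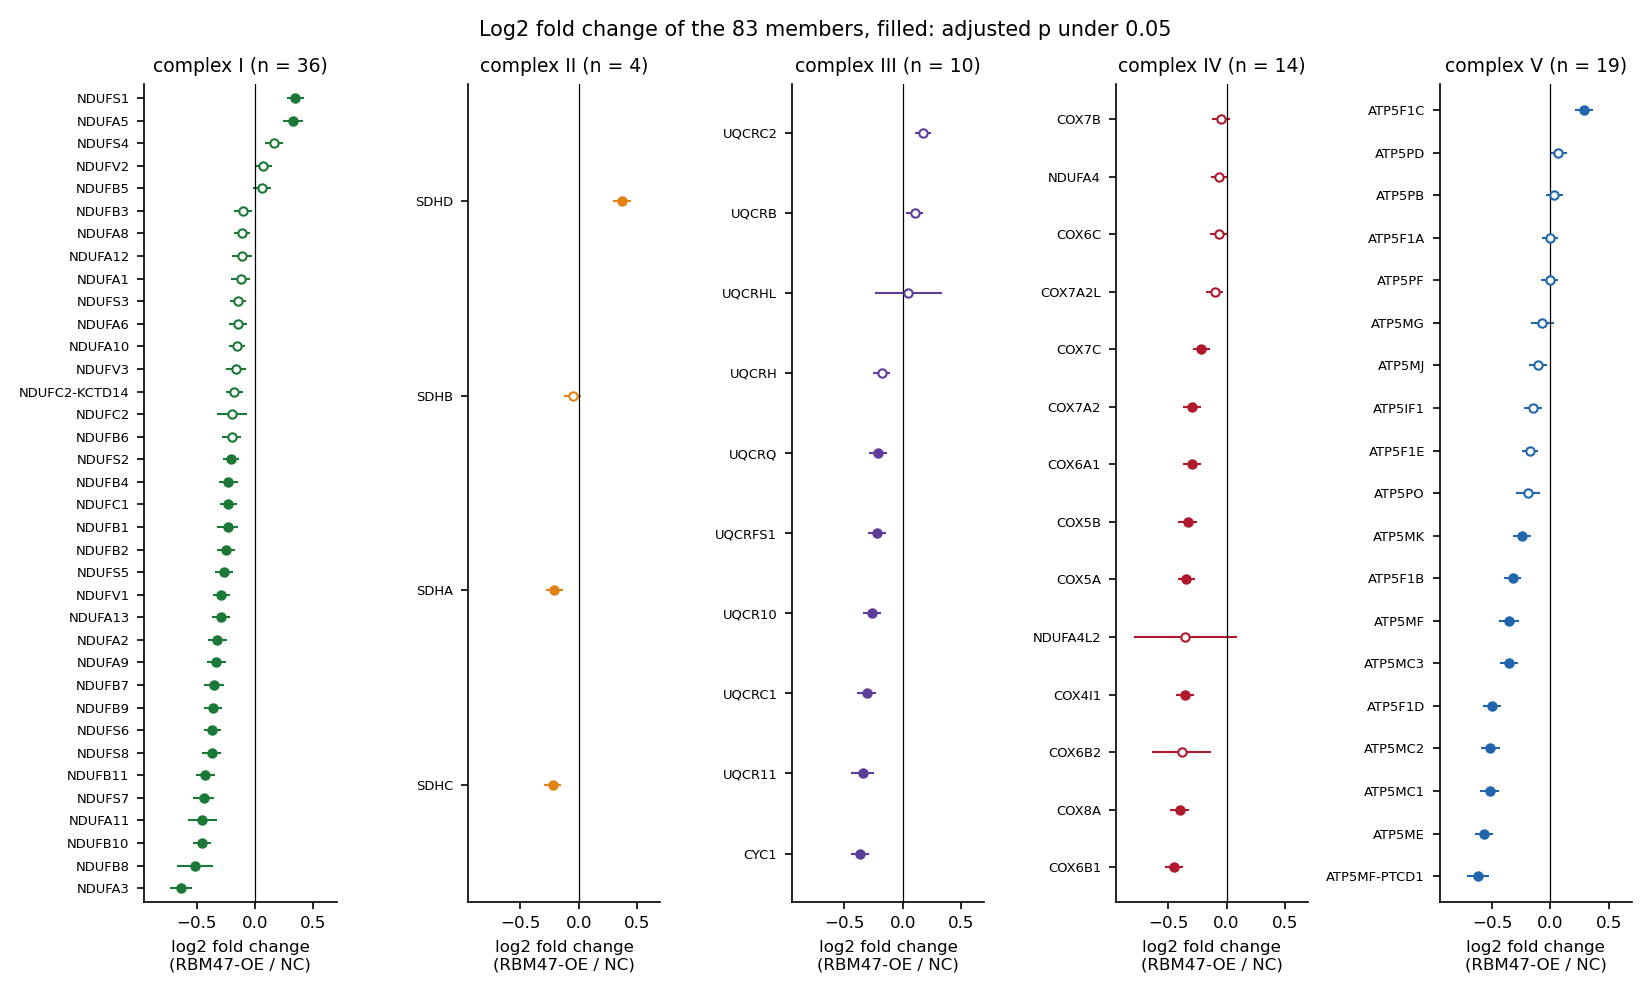
Log2 fold change of RBM47-OE over NC for each of the 83 members, by complex, with bars of 1 SE and filled points at an adjusted p under 0.05. Filled points to the left of 0 are the 45 members called lower and the 4 filled points to the right are NDUFS1, NDUFA5, SDHD and ATP5F1C.

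The shift was present in each RBM47-OE library. Measured against the mean of the 3 NC libraries on the log2 CPM scale, the median member stood at -0.12, -0.34 and -0.20 in RBM47-OE replicates 1, 2 and 3. In NC replicates 1, 2 and 3, each measured against the mean of the other NC libraries, it stood at 0.03, 0.04 and -0.08. Replicate 1 of RBM47-OE was thus nearest to the NC libraries, and replicate 2 was the farthest. In 49 members (59.0%) every RBM47-OE library was below every NC library, where 23.4% of all genes tested showed this pattern, and in 6 (7.23%) every RBM47-OE library was above, against 23.2% of all genes. The summed CPM of the members was 13214, 13284 and 12636 in NC against 11968, 10485 and 11182 in RBM47-OE. The 2 groups did not overlap, and the means differed by -14.1%, though with 3 libraries against 3 an exact two-sided permutation test cannot go below p = 0.1. The sum differed by -17.6% in complex IV, -14.0% in complex V, -13.9% in complex I, -11.7% in complex III and -4.38% in complex II, with RBM47-OE below NC in all 3 libraries except in complex II.

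**Figure D2:**
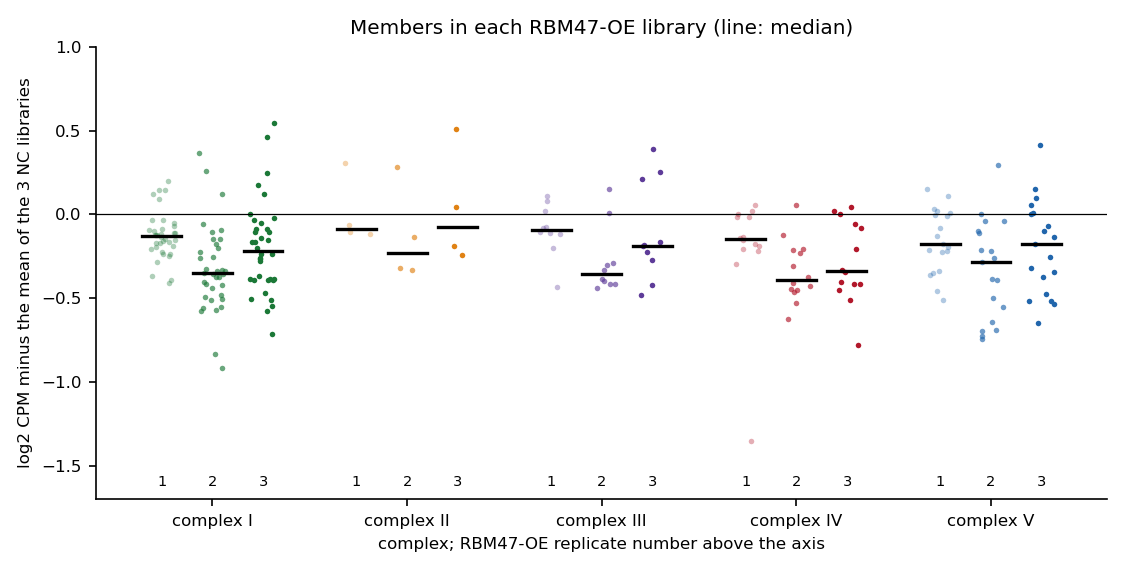
Log2 CPM of each member minus its mean over the 3 NC libraries, for the 3 RBM47-OE libraries of each complex, with the median as a line. The median lies below 0 for every complex in every library, from -0.07 in complex II of replicate 3 to -0.39 in complex IV of replicate 2.

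Complex I had 20 of its 36 members called lower and 2 called higher, and the median log2 fold change was -0.23. NDUFA3, a small accessory subunit (ENSG00000170906, chr19:54102728-54109257, plus strand), had FPKM of 17.3, 17.0 and 16.95 in NC against 13.35, 10.3 and 10.9 in RBM47-OE. The RBM47-OE values were all below the NC values, and the log2 fold change was -0.64 ± 0.0932 (edgeR adjusted p = 4.14e-05). NDUFB10, an accessory subunit of the membrane arm (ENSG00000140990, chr16:1959538-1961975, plus strand), had FPKM of 120.0, 117.5 and 116.7 in NC against 99.7, 86.2 and 84.8 in RBM47-OE, a log2 fold change of -0.46 ± 0.0765 (edgeR adjusted p = 0.000117). NDUFB11, also in the membrane arm (ENSG00000147123, chrX:47142071-47145466, minus strand), had 95.3, 97.1 and 100.8 FPKM in NC against 85.2, 71.8 and 72.0 in RBM47-OE, with -0.43 ± 0.0788 (edgeR adjusted p = 0.000273). In both genes the groups did not overlap and replicate 1 of RBM47-OE was the nearest to NC.

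The most abundant transcript of complex I per length was NDUFS5, with 304.15, 308.2 and 280.9 FPKM in NC against 274.8, 240.4 and 264.6 in RBM47-OE. The fitted log2 fold change was -0.27 ± 0.0753 (edgeR adjusted p = 0.00749), and its lowest NC value was close to its highest RBM47-OE value. Under the length offset NDUFS5 was not called (-0.13 ± 0.072, edgeR adjusted p = 0.185). By structural group, 8 of 11 NDUFB genes were called lower, 5 of 11 NDUFA genes, and 4 of the 7 core subunits, the set that holds the flavin and the iron-sulfur clusters. NDUFS1, the largest core subunit, was one of the exceptions. It had 7.28, 6.92 and 6.94 FPKM in NC against 8.30, 9.79 and 10.2 in RBM47-OE, a log2 fold change of 0.35 ± 0.0749 (edgeR adjusted p = 0.000957), with every RBM47-OE value above every NC value. NDUFA5, an accessory subunit, had 2.64, 2.59 and 2.56 FPKM in NC against 2.95, 3.35 and 3.97 in RBM47-OE (0.33 ± 0.0886, edgeR adjusted p = 0.0056), and was not called under the length offset (0.19, edgeR adjusted p = 0.0736).

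The 4 genes of complex II moved apart. SDHD, the small membrane anchor (ENSG00000204370, chr11:112086824-112120016, plus strand), had FPKM of 25.6, 25.6 and 24.5 in NC against 32.1, 33.1 and 37.8 in RBM47-OE. All RBM47-OE values lay above the NC values, and the log2 fold change was 0.37 ± 0.0745 (edgeR adjusted p = 0.000537). SDHC, its partner in the membrane, had 58.1, 60.2 and 57.1 FPKM in NC against 55.9, 50.1 and 51.7 in RBM47-OE, with -0.22 ± 0.0726 (edgeR adjusted p = 0.0181), and was not called under the length offset (-0.12, edgeR adjusted p = 0.174). SDHA, the flavoprotein that oxidises succinate, had 16.6, 17.8 and 17.3 FPKM in NC against 16.3, 14.8 and 15.8 in RBM47-OE, with -0.21 ± 0.0717 (edgeR adjusted p = 0.0244). SDHB, the iron-sulfur subunit, had 52.5, 51.0 and 47.5 FPKM in NC against 49.4, 49.2 and 54.3 in RBM47-OE. Its groups overlapped and it was not called (-0.05 ± 0.0724, edgeR adjusted p = 0.616). The exons of SDHA overlap those of CTD-2546F11.1 on the same strand over 21.7% of their length, so part of its count could depend on how shared reads were assigned.

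**Figure D3:**
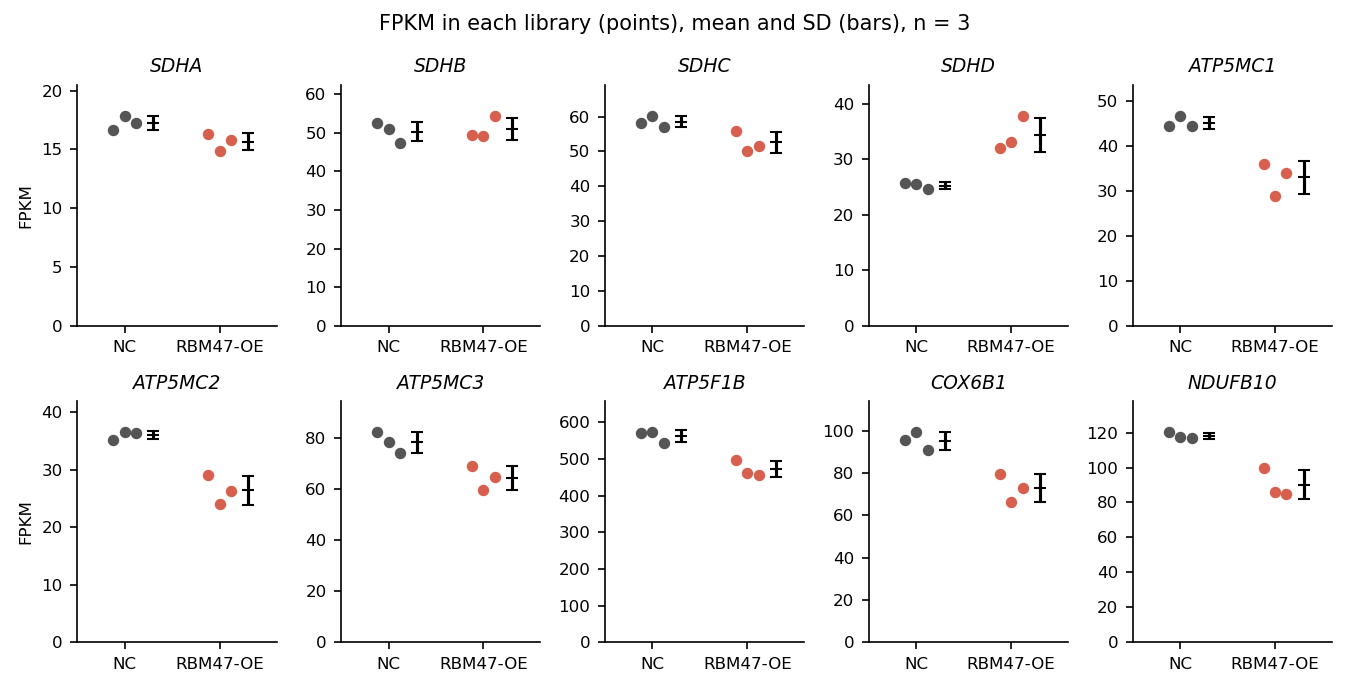
FPKM of 10 members in the 3 NC and 3 RBM47-OE libraries (points), with the mean and SD of each group (bars), on axes that start at 0. SDHD is higher in every RBM47-OE library and SDHB overlaps between groups, and the other 8 genes have lower RBM47-OE means.

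In complex III, 6 of 10 members were called lower and 0 higher, with a median of -0.21, but 2 of 10 were lower under the length offset, with a median of -0.13. CYC1, the cytochrome c1 subunit, had 183.6, 195.6 and 184.6 FPKM in NC against 167.8, 149.1 and 141.3 in RBM47-OE, with -0.37 ± 0.0767 (edgeR adjusted p = 0.000703). UQCRC1, a core protein of the matrix side, had 97.5, 98.96 and 96.2 FPKM in NC against 93.0, 78.6 and 76.25 in RBM47-OE (-0.31 ± 0.0793, edgeR adjusted p = 0.00371). UQCR11, a small subunit, had 8.11, 8.09 and 8.30 FPKM in NC against 6.2, 6.6 and 7.53 in RBM47-OE (-0.34 ± 0.0994, edgeR adjusted p = 0.00898), and was not called under the length offset (-0.25, edgeR adjusted p = 0.056). Groups did not overlap in any of these 3 genes. UQCRH, the hinge protein, had the highest FPKM of the complex, with 215.6, 213.9 and 199.0 in NC against 203.7, 184.1 and 195.5 in RBM47-OE. UQCRH was not called (-0.18 ± 0.0732, edgeR adjusted p = 0.0594). Its retrocopy UQCRHL was at 0.40 to 0.64 FPKM in all libraries.

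Complex IV was the complex in which every member had a negative log2 fold change, though under the length offset 12 values were negative and 2 positive. Of its 14 members 8 were called lower and 0 higher, and the median was -0.31. COX6B1 (ENSG00000126267, chr19:35648323-35658782, plus strand), a subunit of the intermembrane space, had 95.6, 99.2 and 90.7 FPKM in NC against 79.5, 66.5 and 73.0 in RBM47-OE, with -0.45 ± 0.078 (edgeR adjusted p = 0.000153). COX8A had the highest FPKM of the complex, with 464.2, 469.9 and 494.1 in NC against 429.9, 355.2 and 349.8 in RBM47-OE (-0.40 ± 0.0811, edgeR adjusted p = 0.000577). FPKM depends on the gene length used, and by counts COX4I1 stood above COX8A, with means of 17507 and 7332. COX4I1, a regulatory subunit that binds adenine nucleotides, had 117.2, 116.7 and 111.35 FPKM in NC against 101.8, 90.7 and 90.4 in RBM47-OE (-0.36 ± 0.0753, edgeR adjusted p = 0.00078). In all 3 genes every RBM47-OE library was below every NC library.

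Several subunits of complex IV exist as tissue isoforms, and the ubiquitous forms were the ones expressed well in these cells. COX4I2 and COX7A1, forms known from lung and muscle, were below the count minimum, with 0 counts in all NC libraries and at most 5 counts in any RBM47-OE library, and the testis form COX8C had at most 5 counts in any library. COX6B2 was at 0.27 to 0.54 FPKM and NDUFA4L2 at 0.06 to 0.24 FPKM, and their groups overlapped. Of the ubiquitous forms, COX6A1 (288.8 ± 16.3 FPKM in NC and 247.0 ± 13.5 in RBM47-OE, SD, n = 3) and COX7A2 (92.8 ± 2.86 and 79.4 ± 5.46) were called lower, with log2 fold changes of -0.30 and -0.29. COX7A2L (-0.10), COX7B (-0.05) and NDUFA4 (-0.07) were not called.

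Complex V had 9 of 19 members called lower and 1 higher, with a median of -0.19, and its parts differed in their counts. All 3 c subunit genes were called lower. ATP5MC1 (ENSG00000159199, chr17:48892765-48895871, plus strand) had 44.45, 46.7 and 44.5 FPKM in NC against 36.1, 29.0 and 34.0 in RBM47-OE, with -0.52 ± 0.0811 (edgeR adjusted p = 6.12e-05). ATP5MC2 (ENSG00000135390, chr12:53632726-53677408, minus strand) had 35.2, 36.5 and 36.3 FPKM in NC against 29.1, 24.0 and 26.3 in RBM47-OE, with -0.51 ± 0.078 (edgeR adjusted p = 4.91e-05). ATP5MC3 (ENSG00000154518, chr2:175176258-175181710, minus strand) had 82.0, 78.4 and 74.0 FPKM in NC against 68.8, 59.4 and 64.4 in RBM47-OE, with -0.35 ± 0.0767 (edgeR adjusted p = 0.00102). In each gene the groups did not overlap and replicate 2 of RBM47-OE was the lowest, so the 3 sources of the shared mature protein moved in 1 direction.

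Outside the ring, ATP5ME, subunit e of the membrane part (ENSG00000169020, chr4:672436-674330, minus strand), had 95.35, 96.3 and 88.1 FPKM in NC against 69.7, 60.7 and 68.1 in RBM47-OE, with -0.56 ± 0.0773 (edgeR adjusted p = 2.72e-05). Its exons lie opposite those of MYL5 over 61.3% of their length, and whether strand was used in counting is not given in the sources used here. ATP5F1D, the delta subunit of the central stalk, had 73.1, 75.3 and 78.2 FPKM in NC against 61.4, 52.0 and 54.55 in RBM47-OE (-0.50 ± 0.0765, edgeR adjusted p = 5.11e-05). ATP5F1B, the catalytic beta subunit and the most abundant member of the set, had 570.5, 572.6 and 544.65 FPKM in NC against 497.0, 463.1 and 455.9 in RBM47-OE (-0.32 ± 0.075, edgeR adjusted p = 0.00168). ATP5F1C, the gamma subunit that turns inside the head, went the other way, with 55, 52.5 and 48.1 FPKM in NC against 59.1, 68.5 and 72.2 in RBM47-OE (0.29 ± 0.0769, edgeR adjusted p = 0.00486). Of the 4 peripheral stalk genes 0 were called by edgeR, with log2 fold changes from -0.19 to 0.07. ATP5IF1, the inhibitor that blocks ATP hydrolysis, was at 33.4 ± 2.53 FPKM in NC and 31.8 ± 2.24 in RBM47-OE and was not called (-0.15 ± 0.0761, edgeR adjusted p = 0.139). The read-through gene ATP5MF-PTCD1 had 8.48, 8.42 and 7.44 FPKM in NC against 5.83, 5.37 and 5.40 in RBM47-OE (-0.62 ± 0.0953, edgeR adjusted p = 5.35e-05). Its exons overlap ATP5MF or PTCD1 over 87.9% of their length, so its reads cannot be cleanly separated from theirs.

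Reads of overlapping genes were added for 7 members and for NDUFA7, where a gene of another name on the same strand holds most of the reads. They were not added for ATP5MF-PTCD1, whose overlap is given above. The member's share of the joint reads was 2.17% for NDUFB8, 5.90% for NDUFA11, 8.38% for NDUFC2, 13.1% for ATP5MG, 13.5% for ATP5PO, 14.4% for UQCR11 and 33.4% for NDUFA9. It was 0.494% for NDUFA7, the gene just under the count minimum. When the reads of the overlapping gene were added, an alternative chosen after seeing the data, 45 members were again called lower and 4 higher. The joint count of NDUFB8 and RP11-411B6.6 gave -0.35 ± 0.0751 (edgeR adjusted p = 0.000929), and that of ATP5PO and AP000304.12 gave 0.08 ± 0.0683 (edgeR adjusted p = 0.411) in place of -0.19 for ATP5PO alone. Many members also have processed pseudogenes, and the deposited counts rest on uniquely mapped reads, so levels of single genes are uncertain to that extent.

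The RBM47-OE libraries differed from NC along the GC content of the exons, and this trend moved with the condition across the whole table. Over 16233 tested genes with a known exonic GC content, Spearman's rho across genes between GC content and log2 fold change was -0.63, and over the 83 members it was -0.70. Genes share their libraries and are not independent, so these are descriptions. Below 45% GC, all genes had a median of 0.29 and 47.3% were called higher, whereas the 30 members had a median of -0.08, with 4 called higher and 7 lower. At 55% GC or more, all genes had a median of -0.22 and the 18 members had -0.38, with 15 called lower. Members lay below the median of all genes in each of the 4 classes of GC content. The part of the GC trend in the result was measured with a second fit, in which each library's trend with GC content was removed as an offset (the GC offset), whatever its origin.

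With the GC offset, 51 members were called lower and 1 was called higher, against 8.54% and 6.1% of all genes, and the median was -0.23, with 77 negative values. The 2 fits did not name quite the same genes. They shared 33 lower calls, which is 73.3% of the calls without the offset and 64.7% of those with it. Among the 30 members under 45% exonic GC, 7 were lower without the offset and 22 with it. Among the 18 members at 55% or more, 15 were lower without the offset and 7 with it. SDHD remained higher (0.24 ± 0.0575, edgeR adjusted p = 0.00741), while NDUFS1 (0.12), NDUFA5 (-0.05) and ATP5F1C (0.02) were no longer called. Under the offset the lower calls numbered 29 when NC replicate 1 was left out, 29 when NC replicate 2 was, and 30 when RBM47-OE replicate 2 was. CYC1 (-0.14), UQCRC1 (-0.11), UQCR11 (-0.15) and SDHC (-0.16) lost their call, and UQCRH (-0.21), NDUFA4 (-0.40), COX7B (-0.27) and COX7A2L (-0.23) gained one. NDUFA3 (-0.44), NDUFB10 (-0.26), NDUFB11 (-0.31), COX6B1 (-0.31), COX4I1 (-0.30), COX8A (-0.20), ATP5ME (-0.35), ATP5F1D (-0.27) and ATP5F1B (-0.33) were lower in both fits.

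The offset shifted the weight between complexes. Lower calls went from 8 to 12 of 14 in complex IV, from 9 to 14 of 19 in complex V, from 6 to 4 of 10 in complex III and from 2 to 1 of 4 in complex II. Complex I had 20 of 36 in each fit, but not the same genes. NDUFA11, NDUFA13, NDUFB7, NDUFB8, NDUFC1, NDUFS8 and NDUFV1 lost the call, and NDUFA1, NDUFA10, NDUFA12, NDUFB3, NDUFB5, NDUFB6 and NDUFC2 gained it, so that core subunits went from 4 to 2 of 7. NDUFC2 (-0.38 under the offset) holds 8.38% of the reads joint with the read-through gene NDUFC2-KCTD14, also counted in complex I. NDUFC2-KCTD14 was at 0.00868 under the offset and not called. Their exonic GC contents were 43.2% and 56.2%. Joint reads were not fitted with the GC offset, so the gained calls of NDUFC2, ATP5MG and ATP5PO were not checked in that way. The c subunit genes were lower in both fits, with -0.48, -0.44 and -0.66 for ATP5MC1, ATP5MC2 and ATP5MC3 under the offset. ATP5MC3 has the lowest exonic GC content of the 3, 39.0% against 49.1% and 50.4%, so that the order of the 3 values was turned by the offset. Of the 5 other membrane genes of complex V, 3 were lower without it and 5 with it, and of the 4 peripheral stalk genes 2 were lower with it.

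**Figure D4:**
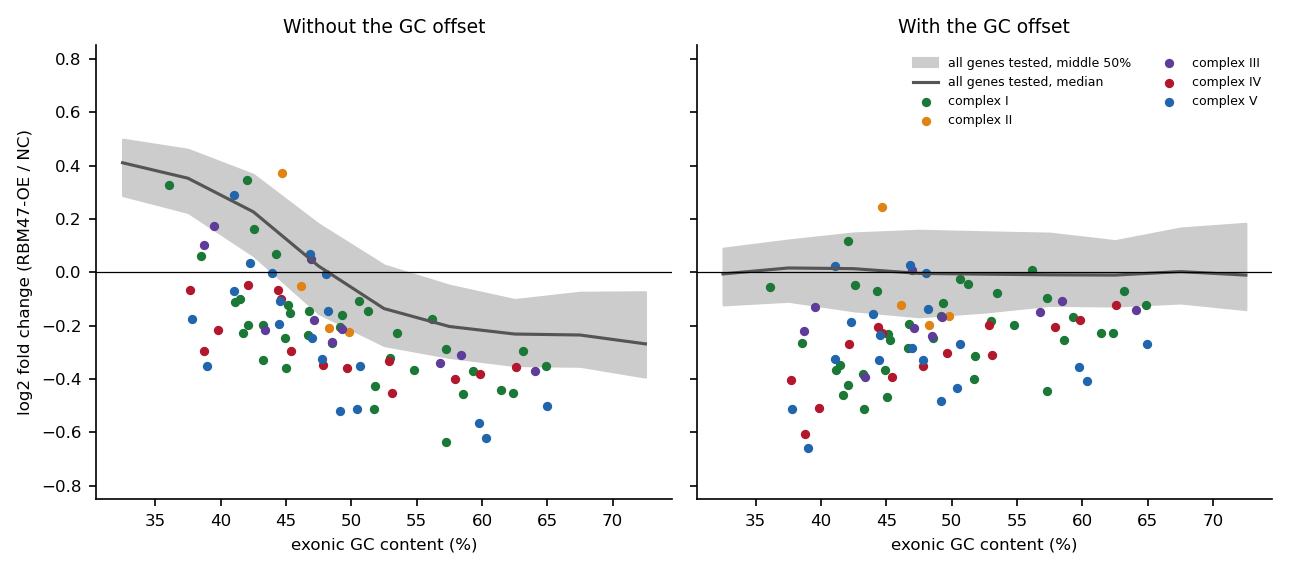
Log2 fold change of RBM47-OE over NC against exonic GC content (%), without and with the GC offset, for the 83 members (points, coloured by complex) and for all genes tested (line: median, band: middle 50% of genes, in classes of 5 percentage points). Without the offset the line falls from 0.41 to -0.27 and most members lie below it, and with the offset the line is near 0 and 77 of 83 members are below 0.

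Genes were ranked by mean log2 CPM and cut into 10 classes of equal size, since many members are abundant transcripts, with 38 in the highest class, 24 in the next and 21 in the remaining 8. In the highest class, 24 of the 38 members (63.2%) were called lower, against 41.8% of the other 1588 genes, with medians of -0.24 and -0.13. In the next class the figures were 12 of 24 members (50%) against 34.8%, and in the remaining classes 9 of 21 (42.9%) against 11.3%. Of the other genes, 20.4%, 26.03% and 18.1% were called higher in these classes. With the GC offset the shares called lower were 65.8% against 24.5%, 58.3% against 18.2% and 57.1% against 5.07%. How far abundance itself enters the counts of members was not tested beyond these classes.

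Genes that belong to the pathway but not to the nuclear subunits were read from lists chosen with earlier results of these data known. Of the 13 subunits encoded by mitochondrial DNA, 10 were called lower and 0 higher, all 13 values were negative, and the median was -0.28, with 11 called lower under the GC offset. Under the length offset 1 of 13 was called lower and the median was -0.16. Every RBM47-OE library was below every NC library in 3 of the 13 (23.1%), against 23.4% of all genes tested. MT-ND6, the subunit on the light strand, had the smallest p, with 242.0 ± 5.73 FPKM in NC and 185.0 ± 15.1 in RBM47-OE (SD, n = 3) and a log2 fold change of -0.46 ± 0.0743 (edgeR adjusted p = 8.88e-05). These transcripts were read here in poly(A) libraries. Whether strand was used in counting is not given, so reads of the opposite strand could enter the count of MT-ND6.

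Assembly factors were called in both directions, where 16.9% of all genes tested were called lower and 19.1% higher. For complex I, 6 of 19 (31.6%) were called lower, led by NDUFAF8 (-0.36). Another 2 (10.5%) were higher, led by NUBPL (0.35), which inserts iron-sulfur clusters. For complex III, 4 of 9 (44.4%) were lower and 2 (22.2%) higher, with UQCC3 at -0.54 and LYRM7 at 0.40. For complex IV, 8 of 26 (30.8%) were lower and 3 (11.5%) higher, with PET100 at -0.51 and LRPPRC, which stabilises mitochondrial mRNAs, at 0.46. SDHAF3 (0.56) was the 1 of 4 complex II factors called, and TMEM242 (0.33) the 1 of 5 for complex V. Under the GC offset the lower calls of these 5 lists were 6, 0, 4, 6 and 0 for complexes I to V. The higher calls were 0, 0, 0, 2 and 0, where 8.54% of all genes were lower and 6.1% higher. The complex I factors lower in both fits were DMAC1 and DMAC2, named after their values were seen, and the other lower calls of that list changed. With the GC offset NUBPL, LYRM7, LRPPRC, SDHAF3 and TMEM242 were no longer called higher. NDUFAF8 (-0.14, edgeR adjusted p = 0.116) was no longer called lower, whereas UQCC3 (-0.37) and PET100 (-0.32) were still lower.

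Of 13 tested cytochrome c and coenzyme Q genes, 2 (15.4%) were called lower and 2 (15.4%) higher, with a median of -0.04. These shares were near those of all genes tested, 16.9% lower and 19.1% higher. COQ4 (-0.36) and COQ10B (0.33) had the smallest p in each direction, but neither was called under the GC offset (-0.20 and 0.07). The 1 gene of the list lower in that fit was COQ9 (-0.18, edgeR adjusted p = 0.0489), named after its values were seen. Among 13 tested transcriptional regulators, 4 (30.8%) were called higher and 3 (23.1%) lower, against 19.1% and 16.9% of all genes, with a median of 0.15. YY1, a zinc finger factor with sites in many of these promoters, had 12.8 ± 0.141 FPKM in NC and 16.6 ± 0.801 in RBM47-OE, with 0.30 ± 0.0679 (edgeR adjusted p = 0.00124), and kept its call under the GC offset (0.30). PPRC1, a coactivator of NRF1, had 12.3 ± 0.365 FPKM in NC and 8.77 ± 0.51 in RBM47-OE, with -0.56 ± 0.0725 (edgeR adjusted p = 1.73e-05), and was also lower under the offset (-0.37). These 2 were the genes of the list called in that fit. PPARGC1A did not pass the filter on low counts.

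**Figure D5:**
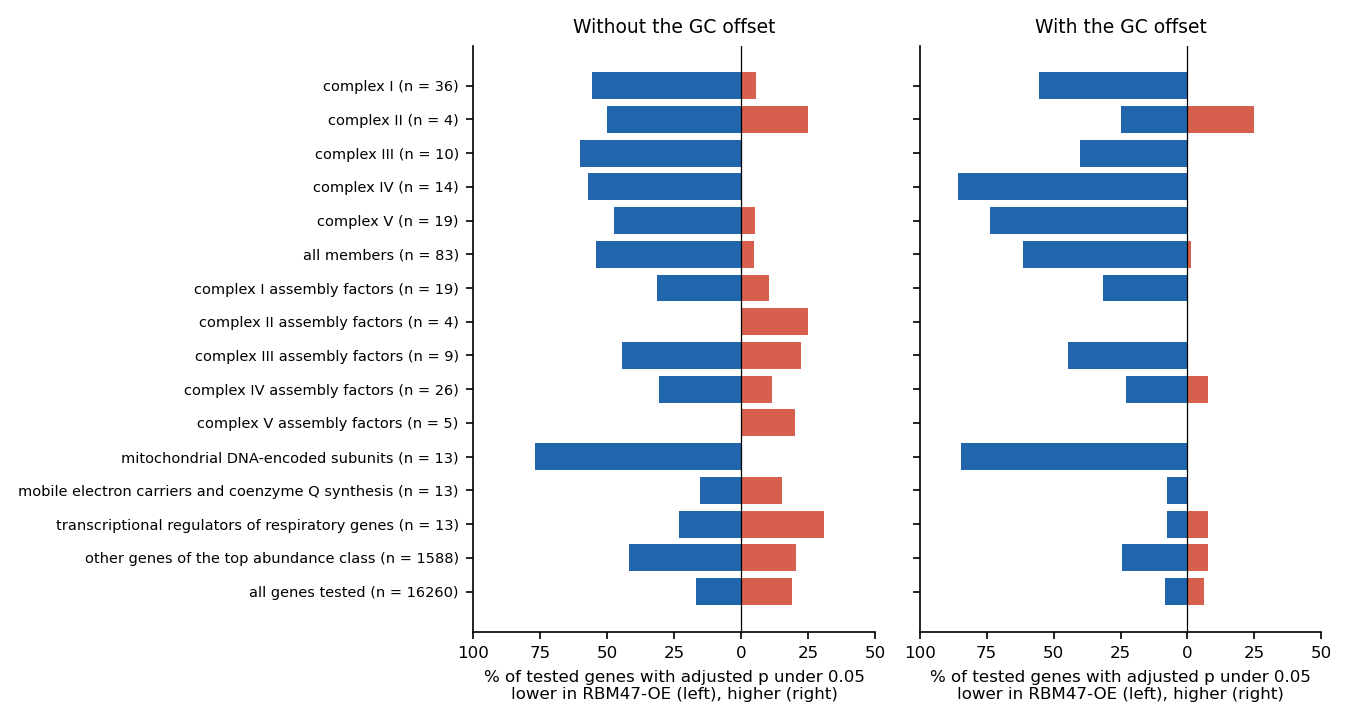
Percent of tested genes with an adjusted p under 0.05 that were lower (left of 0) or higher (right of 0) in RBM47-OE, without and with the GC offset, for the 5 complexes, all members, the 8 pathway lists, the other genes of the highest of 10 abundance classes and all genes tested. All members stand at 54.2% lower without and 61.4% with the offset, and all genes tested at 16.9% and 8.54%.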

How the data were processed

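The 6 poly(A) RNA libraries were grouped by the sample labels into 3 NC and 3 RBM47-OE. The authors filtered and trimmed the reads with FASTX-Toolkit and aligned them to GRCh38 with HISAT2, and they counted uniquely mapped reads per gene in the deposited counts, which are not normalized. The authors also deposited FPKM, which scales fragments by gene length and library size. The counting tool, annotation release and use of strand are not given in the sources used here. Labels and methods also differ in medium (DMEM or McCoy's 5A) and library kit (NEBNext directional or KC stranded). The 26792409 to 35477983 counts per library limit precision mainly for members under 100 counts.

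Counts were tested with edgeR 4.0.16 in R 4.3.3 (filterByExpr with a minimum count of 10 and a minimum total of 15, TMM, quasi-likelihood test, no covariate) on 16260 genes, with Benjamini-Hochberg adjustment over all of them. Standard errors are the log2 fold change over the square root of the F statistic. A prior count of 2 entered log2 CPM. For the GC and length offsets, the log2 deviation of a library from the average library was smoothed by loess (span 0.3) over genes. Exonic GC content, length and coordinates came from GENCODE 44 on GRCh38, matched by identifier and chromosome for 28401 genes. GC content and length were taken over all annotated exons of a gene together. Promoters came from RefSeq. edgeR, DESeq2 1.42.0 and limma 3.58.1 were tested on simulated counts.

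The members, the gene lists and the tests were chosen with earlier results of these data known. Members named with values are, per complex, the 3 with the smallest p among those called and not overlapping, and the one with the highest mean FPKM. They also include complex II and CYC1, isoform sets and ATP5IF1. Those past the study's thresholds (p under 0.01, fold change over 1.5) and those next to the count minimum are named too. In each pathway list the gene with the smallest p in each direction is named. NDUFS1, NDUFA5 and ATP5F1C were added to name every member called higher. Alternatives were DESeq2, RLE factors, library totals, other filters, the replicate block, GC and length offsets, limma on log2(FPKM + 1) and log2(FPKM + 0.1), other thresholds and each library left out. Adding overlapping genes, and leaving out libraries under the GC offset, were chosen after seeing the data.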

Additional observations from a re-analysis of the deposited data

How the results depend on the processing

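The median log2 fold change of the 83 members was negative under every alternative run, from -0.14 with limma on log2(FPKM + 1) to -0.30 with the GC offset and without RBM47-OE replicate 1. The members called lower numbered 45, and 44 with DESeq2 on the filtered genes, 36 with library totals, 36 with the length offset, 31 with limma on log2(FPKM + 1), 12 with limma on log2(FPKM + 1) without a filter, 33 at an adjusted p under 0.01 and 2 at the study's thresholds. The members called higher numbered 4. This number rose to 5 with DESeq2, on the filtered genes or on all genes. It was 6 in the filtered limma fits, for either constant added to FPKM, and 6 when library totals replaced the TMM scaling. It fell to 1 with the GC offset, alone, with the replicate block or with the length offset. It was 2 with limma without a filter and 0 at the study's thresholds. With single libraries left out, lower calls ranged from 31 to 52 and higher calls from 3 to 6, and under the GC offset from 29 to 59 and from 1 to 1. The median of complex V moved to -0.28 with the GC offset and to -0.10 with limma on log2(FPKM + 1), and that of complex IV to -0.18 with limma. The cause of these shifts was not tested.

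Replicate numbers are shared by the groups, but deviations of same-numbered libraries correlated at -0.06, -0.01 and -0.02, so no pairing was seen in these values. Whether same-numbered libraries were handled together cannot be told from them. With the replicate block 42 members were lower and 4 higher, with a median of -0.23, and with the GC offset and the block 52 were lower. Depth limits COX6B2, NDUFA4L2 and UQCRHL, whose standard errors of 0.253, 0.441 and 0.286 exceed the member median, and differences of that size were not detectable there.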
